A study of Rattus norvegicus with 12 samples.

Results

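Spp1, Gpnmb, Cd68, Lgals3 and Apoe are 5 genes that macrophages express strongly in scarred lung. They were chosen by name, with earlier results of these data known. They were read from 5 of the 32623 gene identifiers in a table of raw counts from rat lung. The 12 libraries came from male Sprague-Dawley rats, 1 library from the homogenised right lung of 1 animal, prepared with QuantSeq FWD, which reads a stretch near the 3′ end of each polyadenylated transcript. Each group held 4 animals, all killed on day 28. SAL animals received saline into the trachea on day 0 and day 4, then oral vehicle (methylcellulose, 0.5% in water) every day for 3 weeks from day 7. BLM animals received bleomycin into the trachea at 1 U/kg on the same 2 days and the same oral vehicle. NINT animals received bleomycin in the same way and, in place of vehicle alone, oral nintedanib at 100 mg/kg daily over the same 3 weeks. Rats given bleomycin were assigned to vehicle or drug at random on day 7, per the labels. No age is given in the labels. Bleomycin given into the airway injures the alveolar lining and is a standard way to scar the lungs of rodents. Nintedanib is a tyrosine kinase inhibitor used in pulmonary fibrosis.

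Macrophages clear debris, surfactant lipid and dying cells from the alveoli. After injury, monocytes enter the lung and become macrophages that are rich in lysosomal and lipid-handling transcripts, and cells of this kind with high Spp1 have been described in fibrotic lungs. Cd68 (ENSRNOG00000037563) encodes a lysosomal membrane glycoprotein of macrophages. Gpnmb (ENSRNOG00000008816) encodes a transmembrane glycoprotein of lysosomes and phagosomes. Lgals3 (ENSRNOG00000010645) encodes galectin-3, a lectin that binds β-galactosides and is also made by epithelial cells. Apoe (ENSRNOG00000018454) encodes apolipoprotein E, a carrier of lipid between cells. Spp1 (ENSRNOG00000043451) encodes osteopontin, a secreted phosphoprotein bound by integrins and CD44. None of these genes is expressed by macrophages alone. In a whole-lung homogenate more macrophages and more RNA per macrophage cannot be told apart. The count table pairs no identifier with a gene name, so markers of other cell types, and of lung itself, could not be picked out and were not examined.

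Gpnmb and Cd68 followed each other closely across the animals while Spp1 behaved differently, as described below. These 3 genes were picked after their levels had been seen. The stretches before their start sites are shown as a description only. RefSeq promoter sequences of the GRCr8 build were found for 4 of the 5 genes, all except Lgals3. The 250 bases before the start are given 5′ to 3′ on the strand of the gene, at chr4:79340878-79341127 (plus strand) for Gpnmb, chr10:54882442-54882691 (minus strand) for Cd68 and chr14:5619805-5620054 (minus strand) for Spp1. Capitals mark matches to 4 short motifs, searched on both strands.
Gpnmb: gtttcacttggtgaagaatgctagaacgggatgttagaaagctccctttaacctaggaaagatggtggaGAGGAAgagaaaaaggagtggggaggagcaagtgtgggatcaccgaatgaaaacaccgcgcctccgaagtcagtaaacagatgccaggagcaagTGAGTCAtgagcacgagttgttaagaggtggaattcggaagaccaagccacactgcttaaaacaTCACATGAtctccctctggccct
Cd68: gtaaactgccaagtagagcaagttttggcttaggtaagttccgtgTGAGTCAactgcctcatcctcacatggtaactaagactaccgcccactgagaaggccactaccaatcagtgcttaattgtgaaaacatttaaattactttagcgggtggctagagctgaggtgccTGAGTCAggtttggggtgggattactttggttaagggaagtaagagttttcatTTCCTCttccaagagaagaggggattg
Spp1: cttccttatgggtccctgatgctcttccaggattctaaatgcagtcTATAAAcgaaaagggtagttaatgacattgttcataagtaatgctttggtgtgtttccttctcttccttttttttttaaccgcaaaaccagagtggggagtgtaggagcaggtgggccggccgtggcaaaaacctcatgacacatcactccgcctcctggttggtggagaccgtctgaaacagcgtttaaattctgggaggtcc
The motifs were the AP-1 element TGANTCA, the M-box TCANGTGA bound by MITF and its relatives, the PU.1 box GAGGAA and the TATA box TATAAA, chosen after the sequences had been read. The shorter core GGAA that ETS factors share was not searched. The Gpnmb stretch held 1 AP-1 element starting 87 bases before the start site, 1 M-box on the reverse strand at 23 bases and 1 PU.1 box at 181 bases. The Cd68 stretch held 2 AP-1 elements, at 205 and 80 bases, and 1 PU.1 box on the reverse strand at 27 bases. Of these 4 motifs the Spp1 stretch matched only the TATA box letters, starting 204 bases before the start site. Whether these letters act as a TATA box there was not tested. Of 33469 RefSeq promoter windows of the same length, 6.34% held the AP-1 element, 3.34% the M-box, 23.3% the PU.1 box and 12.9% the TATA box letters. Apoe has 3 windows in the table, of which 1 held a PU.1 box and none held the AP-1 element, the M-box or the TATA box. A match to these letters is a description of the sequence and was not linked to binding or to the levels of the genes here. The genes and motifs were picked after the data had been seen. The shares over all windows therefore do not test how unusual the matches are.

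Total counts ranged from 16572004 to 21719946 per library. Levels are given as counts scaled to the library total after TMM normalization (CPM). BLM replicate 3 stood apart from the other BLM libraries, with a mean root mean square distance of 0.78 in log2 CPM to its group, against 0.58 to 0.65 for the other BLM libraries and 0.42 to 0.47 for the SAL and NINT libraries. All 5 genes passed the filter on low counts. The lowest count behind any value was that of Spp1 in SAL replicate 4, with 103 reads (exact Poisson 95% interval 84.1 to 124.9, counting error only). The other 4 genes had at least 721 reads in every library, so counting error was small beside the spread between animals.

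The change produced by bleomycin was read from BLM against SAL. All 5 genes were higher in BLM animals, and for each of them every BLM animal lay above every SAL animal. Spp1 rose 14.98-fold, Gpnmb 4.53-fold, Apoe 2.72-fold, Cd68 2.70-fold and Lgals3 2.67-fold (fitted values, n = 4 per group). The response to bleomycin was broad, which sets the scale for the count of 5 out of 5: 18.3% of the 14956 genes tested passed edgeR's quasi-likelihood test in the same direction (Benjamini-Hochberg adjusted p under 0.05), and 16.1% were higher without overlap between the groups. The median log2 fold change of the 5 genes was 1.45, against 0.00188 over all genes tested. By log2 fold change Spp1 ranked 10 of 14956, Gpnmb 60, Apoe 205, Cd68 212 and Lgals3 217. As the genes were chosen with earlier results of these data known, these shares and ranks carry no test of the set.

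**Figure D1:**
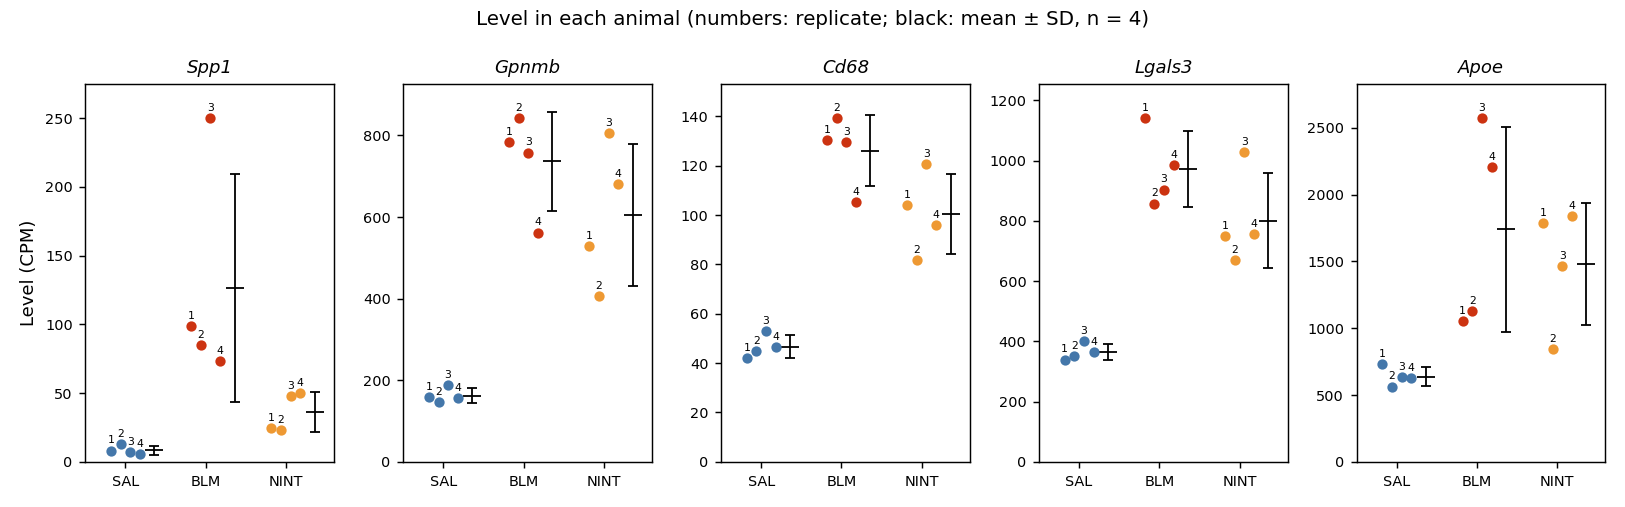
Level of each gene in CPM (linear axes from 0, a separate scale per gene) in the 4 animals of each group. Points are animals numbered by replicate, and black bars are the mean and SD. All SAL animals lie below all BLM and NINT animals for each gene, and only for Spp1 do the BLM and NINT animals not overlap.

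Cd68, the general macrophage marker of the set, stood at 42.2, 45.0, 53.0 and 46.5 CPM in the SAL animals (replicates 1 to 4). It stood at 130.2, 139.3, 129.6 and 105.4 CPM in the BLM animals and at 104.0, 81.6, 120.6 and 95.9 CPM in the NINT animals. The SAL animals were lowest without exception, and the NINT animals overlapped the lower end of the BLM range, with NINT replicate 3 above BLM replicate 4. Group means were 46.7 ± 4.59 CPM for SAL, 126.1 ± 14.5 CPM for BLM and 100.5 ± 16.3 CPM for NINT (SD over 4 animals, as for all means here). BLM exceeded SAL by 1.43 on the log2 scale (SE 0.13, edgeR adjusted p = 5.03e-05). In NINT against BLM it was -0.33 (SE 0.12, 95% interval -0.59 to -0.06), with an unadjusted p-value of 0.0193 and an edgeR adjusted p of 0.109, so this difference was not called. Against SAL the NINT animals were higher by 1.11 (SE 0.12, edgeR adjusted p = 0.000357), which is 2.16-fold.

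Gpnmb, the lysosomal and phagosomal glycoprotein, was at 157.9, 147.2, 188.2 and 156.3 CPM in the SAL animals. The BLM animals had 783.0, 842.5, 757.7 and 561.6 CPM and the NINT animals 527.9, 407.1, 805.8 and 680.5 CPM. NINT replicate 3 was second only to BLM replicate 2 among the 12 animals, while NINT replicates 1 and 2 lay below all BLM animals. Gpnmb averaged 162.4 ± 17.8 CPM for SAL, 736.2 ± 121.7 CPM for BLM and 605.3 ± 174.3 CPM for NINT. Its log2 fold change was 2.18 in BLM against SAL (SE 0.19, edgeR adjusted p = 5.03e-05) and 1.90 in NINT against SAL (SE 0.19, edgeR adjusted p = 0.000227). The difference between NINT and BLM was -0.28 (SE 0.18, edgeR adjusted p = 0.317), and its 95% interval ran from -0.68 to 0.12, which holds both a fall to 0.624 of the BLM level and a rise of 1.08-fold.

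Lgals3, galectin-3, had 339.0, 351.3, 400.3 and 364.0 CPM in the SAL animals. It had 1141, 857.2, 903.6 and 986.0 CPM in the BLM animals and 749.1, 668.7, 1028 and 756.6 CPM in the NINT animals. Of the NINT animals, 3 lay below the BLM range and NINT replicate 3 lay within it. Means were 363.6 ± 26.5 CPM for SAL, 972.0 ± 124.6 CPM for BLM and 800.7 ± 157.0 CPM for NINT. Lgals3 exceeded SAL by 1.42 on the log2 scale in BLM (SE 0.13, edgeR adjusted p = 6.40e-05) and by 1.14 in NINT (SE 0.13, edgeR adjusted p = 0.000429). The difference between NINT and BLM was -0.28 (SE 0.13), with a 95% interval from -0.56 to -0.000928, an unadjusted p-value of 0.0493 and an edgeR adjusted p of 0.175.

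Apoe, the lipid carrier, had 732.0, 562.5, 636.3 and 624.4 CPM in the SAL animals. Its BLM animals fell into pairs: replicates 1 and 2 had 1053 and 1126 CPM, and replicates 3 and 4 had 2574 and 2207 CPM. The NINT animals had 1789, 843.8, 1463 and 1838 CPM, so that 3 of them lay between the lower and the upper pair of BLM animals and NINT replicate 2 lay below all BLM animals. Means were 638.8 ± 70.02 CPM for SAL, 1740 ± 767 CPM for BLM and 1483 ± 458 CPM for NINT. Apoe was higher in BLM than in SAL by 1.45 on the log2 scale (SE 0.30, edgeR adjusted p = 0.00365). NINT differed from BLM by -0.23 (SE 0.29, edgeR adjusted p = 0.612), with a 95% interval from -0.86 to 0.40. Without BLM replicate 3 that difference was 0.03 (edgeR adjusted p = 0.964). NINT was higher than SAL by 1.22 (SE 0.29, edgeR adjusted p = 0.0230), a call that was lost when any 1 of SAL replicates 2, 3 and 4 or NINT replicates 1, 3 and 4 was left out (edgeR adjusted p from 0.0524 without SAL replicate 2 to 0.0681 without NINT replicate 4).

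Spp1, osteopontin, was low in the SAL animals, at 8.19, 13.1, 7.14 and 5.39 CPM. The BLM animals had 98.7, 84.7, 250.2 and 73.1 CPM and the NINT animals 24.4, 23.3, 47.96 and 50.1 CPM. The 3 groups did not overlap: each NINT animal lay above the SAL animals and below the BLM animals. BLM replicate 3 held more than any other animal, at 29.6 times the SAL mean, while the other BLM animals stood at 8.66 to 11.7 times and the NINT animals at 2.76 to 5.93 times. Means were 8.45 ± 3.30 CPM for SAL, 126.7 ± 83.0 CPM for BLM and 36.4 ± 14.5 CPM for NINT. Spp1 was higher in BLM than in SAL by 3.91 on the log2 scale (SE 0.45, edgeR adjusted p = 0.000208), or by 3.38 without BLM replicate 3 (edgeR adjusted p = 6.46e-05).

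Whether nintedanib changed these genes after bleomycin was read from NINT against BLM. Spp1 was the gene of the set that was called, and it fell by 1.80 on the log2 scale (SE 0.41, edgeR adjusted p = 0.0338), to 0.287 of the BLM level with a 95% interval of 0.156 to 0.529. The other 4 genes had fitted levels of 0.797 to 0.853 of BLM, were not called, and overlapped between the groups. Over all 14956 genes 3.46% were called lower in NINT and 9.68% were lower without overlap, and the median log2 fold change of the 5 genes was -0.28, against -0.00573 over all genes. The direction of the Spp1 difference was the same in each fit that left out 1 animal, from -1.99 to -1.22. The call was not kept without BLM replicate 3 (-1.22, edgeR adjusted p = 0.0545), nor without NINT replicate 1, 2, 3 or 4 (edgeR adjusted p = 0.0743, 0.104, 0.0701 and 0.0551). In a fit of the BLM and NINT libraries alone Spp1 differed by -1.79 (edgeR adjusted p = 0.0973), and 27 genes were called in all, against 872 in the fit of the 3 groups.

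**Figure D2:**
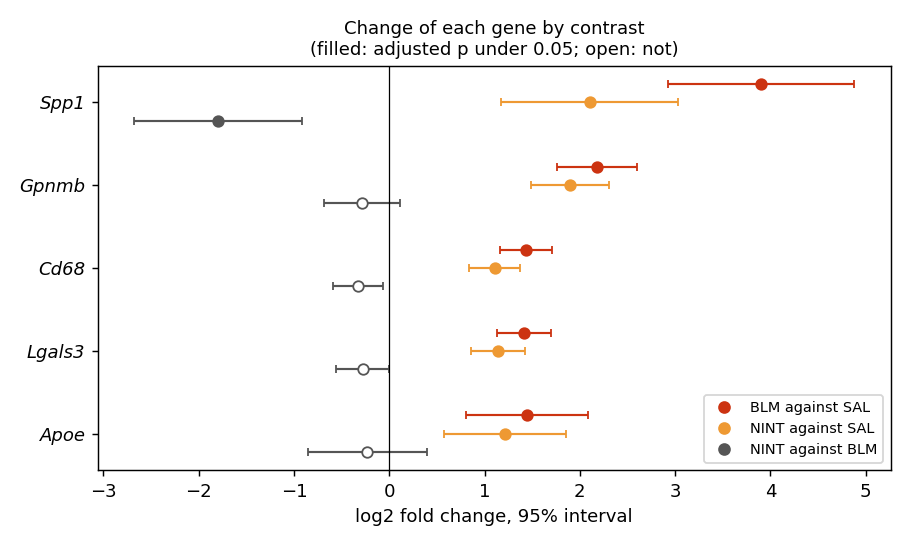
Fitted log2 fold change of each gene (x axis) in the 3 contrasts, with 95% intervals from edgeR's quasi-likelihood fit of 12 libraries. Filled points passed an adjusted p-value of 0.05 and open points did not. For NINT against BLM the intervals of Gpnmb and Apoe include 0, and those of Cd68 and Lgals3 end just below it. The interval of Spp1 lies farther below 0.

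**Figure D3:**
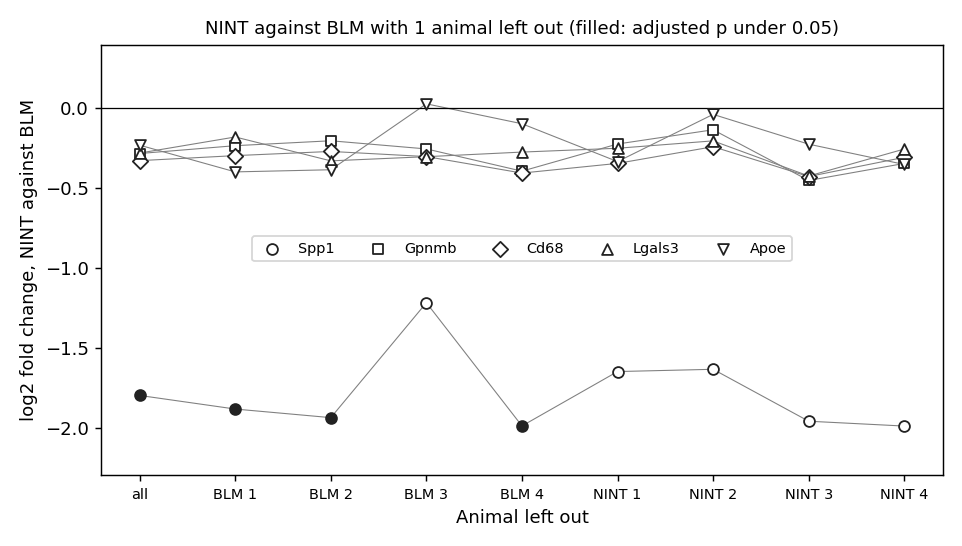
Log2 fold change of each gene in NINT against BLM (y axis) with all animals and with 1 BLM or NINT animal left out (x axis). Filled symbols passed an adjusted p-value of 0.05 and open ones did not. Spp1 stays between -1.99 and -1.22, nearest to 0 without BLM replicate 3, and Apoe crosses 0 without that animal.

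How far treated animals stood above saline animals on day 28 was read from NINT against SAL. This contrast shares the SAL animals with BLM against SAL and the NINT animals with NINT against BLM. All 5 genes were called higher in NINT, of which Apoe lost its call in the 6 fits without 1 animal given above, and no NINT animal overlapped the SAL animals for any of them. Spp1 was higher by 2.11 (SE 0.43, edgeR adjusted p = 0.0105), which is 4.31-fold, beside 14.98-fold in BLM. The BLM value leans on BLM replicate 3: without it the log2 fold change of Spp1 in BLM against SAL was 3.38, beside 3.91 with it. Gpnmb was 3.73-fold higher beside 4.53-fold in BLM, Apoe 2.32-fold beside 2.72-fold, Lgals3 2.20-fold beside 2.67-fold and Cd68 2.16-fold beside 2.70-fold. Over all genes 4.25% were called higher in NINT than in SAL and 10.6% were higher without overlap. With library totals in place of TMM factors the split of all calls moved from 635 higher and 756 lower to 507 higher and 1088 lower, and the 5 genes were called higher in both. By log2 fold change Spp1 ranked 21 of 14956 in this contrast, Gpnmb 33, Apoe 141, Lgals3 167 and Cd68 181.

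The 5 genes did not order the bleomycin animals alike. BLM replicate 3 was highest of the 12 animals for Spp1 and Apoe, BLM replicate 2 for Gpnmb and Cd68, and BLM replicate 1 for Lgals3. BLM replicate 4 was the lowest BLM animal for Spp1, Gpnmb and Cd68 but had the second highest Apoe of all animals. Relative to the SAL mean, Apoe in the BLM animals was 1.65, 1.76, 4.03 and 3.46 times as high, whereas Cd68 was 2.79, 2.99, 2.78 and 2.26 times as high. NINT replicate 2 was the lowest animal given bleomycin for all 5 genes, at 1.75 times the SAL mean for Cd68, 1.84 for Lgals3, 2.51 for Gpnmb, 1.32 for Apoe and 2.76 for Spp1.

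**Figure D4:**
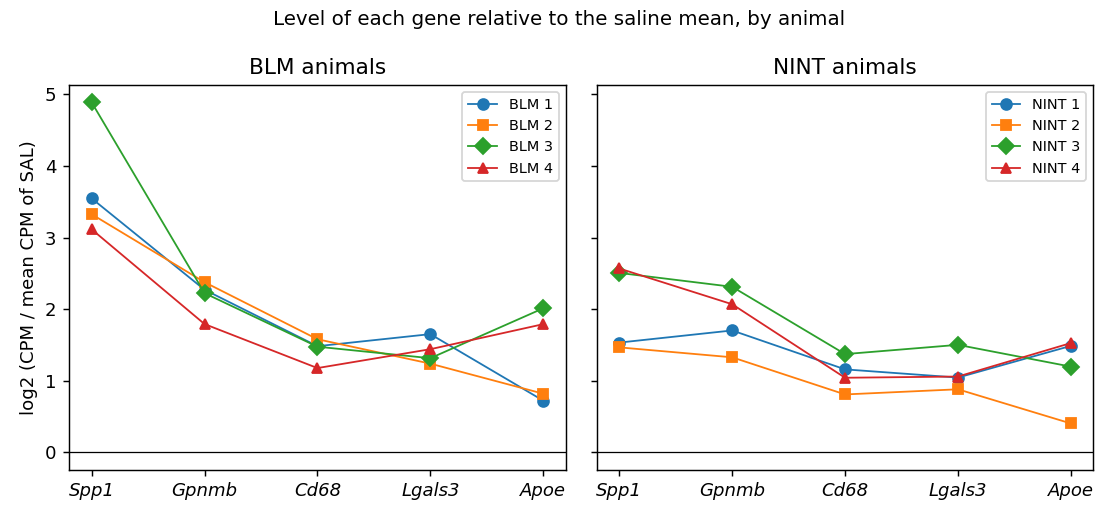
Level of each gene relative to the SAL mean (y axis, log2 of the CPM ratio) in the 4 BLM animals (left) and the 4 NINT animals (right), 1 line per animal. BLM replicates 3 and 4 lie above BLM replicates 1 and 2 for Apoe (2.01 and 1.79 against 0.72 and 0.82), an order not seen for Cd68 or Gpnmb.

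Spread between animals of a group was largest for Spp1, with an SD of log2 CPM of 0.53 for SAL, 0.80 for BLM and 0.60 for NINT. The median SD over the 14956 genes was 0.16, 0.26 and 0.17 in the same order of groups. Cd68 had an SD of 0.14, 0.17 and 0.23 in the same order of groups, Lgals3 0.10, 0.18 and 0.27, and Gpnmb 0.15, 0.26 and 0.43. Apoe had a spread near the median gene in SAL, at 0.16, and above it in BLM and NINT, at 0.66 and 0.52. In NINT the spread of Gpnmb, Lgals3 and Cd68 also lay above that of the median gene.

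The ratio of each gene to Cd68 within a library does not depend on how libraries are scaled, and was used to ask whether the genes changed unequally. It is a ratio of counts, and is compared between animals and not between genes. It was computed for Spp1, Gpnmb, Lgals3 and Apoe only. The share of all genes whose ratio to Cd68 separates the groups is therefore not known. Gpnmb had 3.48 ± 0.208 counts per Cd68 count for SAL, 5.81 ± 0.331 for BLM and 5.96 ± 1.09 for NINT, and every animal given bleomycin lay above every SAL animal. The ratio of Gpnmb to Cd68 was 1.67 times as high in BLM as in SAL and 1.69 times in NINT (exact permutation test, two-sided, p = 0.0286 each, the smallest value that 4 animals against 4 allow). Adjusted over the 12 comparisons of ratios both exact permutation p-values were 0.0857. At this group size an adjusted value under 0.05 would need at least 7 of the 12 comparisons at the smallest p, and 4 were there, so separated groups could not pass on their own.

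Spp1 had 0.195, 0.291, 0.135 and 0.116 counts per Cd68 count in the SAL animals, 0.758, 0.608, 1.93 and 0.694 in the BLM animals and 0.235, 0.286, 0.398 and 0.522 in the NINT animals. Its ratio was above the SAL and NINT range in every BLM animal, and the NINT animals overlapped the SAL animals. The ratio was 5.13 times as high in BLM as in SAL and 0.388 times as high in NINT as in BLM (exact permutation test, two-sided, p = 0.0286 each, adjusted p = 0.0857 over 12 comparisons). Without BLM replicate 3 the log2 differences were 1.98 and -0.99. Between NINT and SAL the ratio of ratios was 1.99 (exact permutation test, two-sided, p = 0.0857, adjusted p = 0.206).

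Lgals3 and Apoe had mean ratios to Cd68 that differed by less than the spread between animals in each contrast. Lgals3 had 7.81 ± 0.199 counts per Cd68 count for SAL, 7.81 ± 1.499 for BLM and 7.95 ± 0.565 for NINT. Apoe had 13.8 ± 2.42, 14.2 ± 7.13 and 14.7 ± 4.15 in the same order. The Apoe mean in BLM covers animals far apart: 8.08 and 8.08 counts per Cd68 count in replicates 1 and 2, below every SAL animal, and 19.9 and 20.9 in replicates 3 and 4, above every SAL animal. For both genes no contrast had an unadjusted exact permutation p-value under 0.657.

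**Figure D5:**
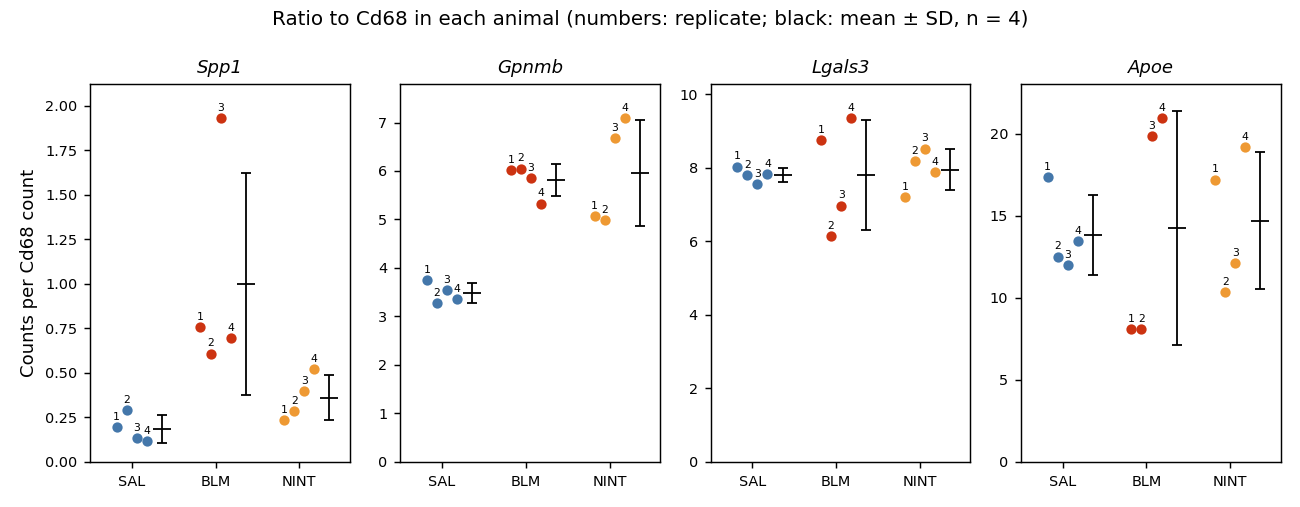
Counts of each gene per Cd68 count (linear axes from 0, a separate scale per gene) in the 4 animals of each group, numbered by replicate, with the mean and SD in black. Gpnmb is higher in all animals given bleomycin, Spp1 is highest in the BLM animals, and Apoe splits the BLM animals at 8.08 and 19.9 to 20.9.

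Across the 12 libraries, which share the differences between groups described above, Gpnmb and Cd68 had a Pearson correlation of log2 CPM of 0.987. Cd68 was the gene ranked 3 of 14955 in likeness to Gpnmb, and Lgals3 ranked 17 for both Gpnmb (r = 0.969) and Cd68 (r = 0.971). Spp1 was less like the others, with r of 0.897 to Gpnmb, 0.906 to Cd68 and 0.885 to Lgals3, and Apoe the least, with r of 0.783 to 0.801 to the other members of the set. A correlation of at least 0.9 was reached by 235 genes for Spp1, 196 for Gpnmb, 218 for Cd68, 209 for Lgals3 and 86 for Apoe. The gene most like Spp1 was ENSRNOG00000021062 (r = 0.990), at 29.7 ± 2.20 CPM for SAL, 46.8 ± 4.78 for BLM and 38.5 ± 2.44 for NINT. The gene most like Cd68 was ENSRNOG00000021243 (r = 0.990), at 2.64 ± 0.405, 13.2 ± 2.22 and 8.19 ± 2.42 CPM in the same order. The files do not name either gene. These correlations describe these libraries and carry no test.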

How the data were processed

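RNA was measured by 3′-end sequencing in 12 right lung homogenates. The authors deposited raw counts, whole numbers of reads per Ensembl gene identifier; the submitters' processing notes name FastQC, STAR, HTSeq and the build rn6, and the annotation, settings and use of strand are not given in the sources used here. Columns were matched to animals by name; 7 empty unnamed columns were not used. None of the identifiers (0 of 32623) matched the reference table of names, so the lists of related genes and cell type markers were not run, and the names of the 5 genes came with their identifiers when they were chosen. In RefSeq's GRCr8 annotation no gene overlaps any of them. The genes, lists and tests were chosen with earlier results of these data known.

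Genes were kept by filterByExpr (minimum count 10, minimum total 15), leaving 14956 genes of 23413 that had any read. The main test was edgeR 4.0.16's quasi-likelihood test (R 4.3.3, TMM factors, 12 libraries, 1 coefficient per group, no covariates) with Benjamini-Hochberg adjustment over all genes kept, called at 0.05. Standard errors and 95% intervals came from that fit. Log2 CPM used a prior count of 2. Ratios to Cd68 used counts plus 0.5 and exact permutation tests. Alternatives were other scalings and filters, DESeq2 1.42.0, limma 3.58.1 (voom), fits of the groups compared, a replicate block and leaving out each animal. The scripts were tested on simulated data. Named genes are the 5 genes and the identifiers most like Spp1 and Cd68. Labels give 1 lung per animal and no library or sequencing batch.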

Additional observations from a re-analysis of the deposited data

Results flagged for a closer look

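Each gene's level and its ratio to Cd68 were searched, within each group of 4, for 1 animal far from the rest by Dixon's test at its 95% level, which marks about 1 set in 20 by chance. That would be about 1.35 of the 27 sets searched, which are not independent, since the ratios reuse the levels. In 2 sets an animal stood apart, and both concerned Spp1 in BLM replicate 3. Its Spp1 level was 250.2 CPM, and the gap to the next BLM animal was 0.856 of the group's range. Its ratio of Spp1 to Cd68 was 1.93 counts per Cd68 count, with a gap of 0.887 of the range. The Cd68 level of the same animal, 129.6 CPM, lay within the range of the other BLM animals.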

How the results depend on the processing

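Every rise of the 5 genes in BLM against SAL was called in all 17 alternatives, and so were those of Spp1, Gpnmb, Cd68 and Lgals3 in NINT against SAL in all 21. The rise of Apoe in NINT against SAL was called in 15 of 21 (edgeR, DESeq2 and limma adjusted p from 0.000546 to 0.0681). The fall of Spp1 in NINT against BLM was called in 9 of 17, with adjusted p from 0.00453 to 0.104. It was -1.70 with a replicate block (edgeR adjusted p = 0.0512), -1.79 in the fit of only the groups compared and -1.21 with both BLM replicate 3 and SAL replicate 3 left out, an alternative chosen after seeing the data, as was leaving out BLM animals in NINT against SAL. With both left out the Apoe difference in NINT against BLM was 0.0355, and without BLM replicate 3 alone 0.0290, a change of sign. Leaving out 1 animal gave log2 fold changes of -1.99 to -1.22 for Spp1 and -0.398 to 0.0290 for Apoe in NINT against BLM, and 1.098 to 1.41 for Apoe in NINT against SAL.

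The number of genes called in NINT against BLM was 1951 with the DESeq2 test, 370 with the replicate block, 27 in the fit of only the groups compared and 205 with both libraries left out, and 17 to 2857 when 1 animal was left out. In NINT against SAL it was 2244, 4268 and 2134 with DESeq2, only the groups compared and both libraries left out, and 675 to 3344 when 1 animal was left out (675 without NINT replicate 3, 3344 without BLM replicate 3). In BLM against SAL it stayed within 1.5 times. Ratios to Cd68 near 0 on the log2 scale changed sign when 1 animal was left out: Apoe from -0.327 to 0.132 in BLM against SAL, -0.0716 to 0.387 in NINT against BLM and -0.0822 to 0.214 in NINT against SAL; Lgals3 from -0.113 to 0.0886, -0.0645 to 0.137 and -0.0104 to 0.0709; and Gpnmb from -0.0694 to 0.100 in NINT against BLM. A prior of 5 counts changed no sign of a ratio. The cause of these changes was not tested. The titles give the groups the same replicate numbers, and deviations of same-numbered animals correlated between -0.17 and 0.20 over all contrasts. In NINT against BLM these correlations were 0.03, 0.20, 0.10 and 0.04, against -0.15 to 0.12 for animals with different numbers. These weak correlations do not settle whether the numbers pair the animals. The block moved the calls in BLM against SAL to 5664 and in NINT against SAL to 1031, and not every animal correlated best with its own number. Spp1 in SAL animals rests on 103 to 245 reads.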
